A study of Arabidopsis thaliana with 2 samples.

Results

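The arms of chromosome 5 of Arabidopsis thaliana are described here, in leaf chromatin of 1 chr5 mutant library and 1 wild-type library. Both genotypes came from plants grown on plates at 22 °C with no treatment, and the allele of the mutant, the ecotype and the age of the plants are not given in the labels. CHR5 is the name of a mutated gene for a chromatin remodelling protein and has nothing to do with chromosome 5; the gene itself (AT2G13370) lies on chromosome 2. Chromatin was digested with micrococcal nuclease (MNase), the DNA that survived was sequenced, and counts were deposited in consecutive bins of 10 kb. The left arm was taken as the bins with a midpoint between 0.5 and 10 Mb and the right arm as those from 14 Mb to 500 kb before the end of the chromosome. This gave 950 bins on the left arm and 1248 on the right arm, 2198 of the 11916 nuclear bins. The bins were chosen by position and not by any measured value.

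MNase cuts the linker DNA between nucleosomes much faster than DNA wrapped around histones, so the sequenced DNA is mostly nucleosomal. CHR5 belongs to the CHD1 type of SNF2 remodellers, which in yeast space nucleosomes evenly over transcribed genes. Chromosome arms in Arabidopsis are gene-rich euchromatin, whereas the pericentromeres are rich in transposons, many of which the annotation lists as pseudogenes. Each value covers 10 kb, which is far wider than a nucleosome and often spans more than 1 gene, so no value can be tied to a nucleosome or to 1 gene.

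The mutant library held 102412872 nuclear counts and the wild-type library 99392770. The arms took 17931609 of them in the mutant (17.5%) and 17192028 in the wild type (17.3%). Each library was scaled to its nuclear total, and folds are mutant over wild type after that scaling. Ratios were taken for bins with a mean scaled count of at least 0.25 times the nuclear median, which kept all 950 bins of the left arm and 1222 of the 1248 on the right arm. With 1 library per genotype there is no replicate check and no test between genotypes. Intervals of folds are exact conditional binomial intervals at 95% and cover counting error only. Genes were placed with a RefSeq table of another stated assembly name than the files, which name none, and bin coordinates are those of the files, counted from 1. After a running median over 21 bins was subtracted from both, wild-type levels followed protein-coding coverage with r = 0.58 in the left arm and 0.58 in the right arm when the table was not shifted, against at most 0.16 and 0.11 when it was shifted by up to 4 bins.

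The level of protected DNA was higher on the left arm than on the right arm in both libraries. The median bin of the left arm had 83.6 CPM, counts scaled to the nuclear total, in the mutant and 82.2 CPM in the wild type. That of the right arm had 76.3 CPM in the mutant and 75.7 CPM in the wild type. The left arm also had more of its length in protein-coding genes, with a mean of 66.9% over bins against 61.3% on the right arm. The central 80% of bins ran from 54.3 to 112 CPM on the left arm and from 48.9 to 104 CPM on the right arm in the mutant. In the wild type they ran from 52.7 to 112 CPM and from 47.9 to 103 CPM.

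Within the arms the level followed gene coverage closely. Bins with over 75% of their length in protein-coding genes had a median of 95.8 CPM in the mutant and 95.3 CPM in the wild type (807 bins). Bins with under 25% had 49.4 CPM in the mutant and 49.0 CPM in the wild type (150 bins). Spearman's rho across the 2172 analysed bins between level and coding coverage was 0.70 in both libraries, a description of bins that share a library and lie side by side. Over 23 windows of up to 1 Mb, the median wild-type level ran with the mean coding coverage with a rho of 0.91. Base composition was not measured here.

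**Figure D1:**
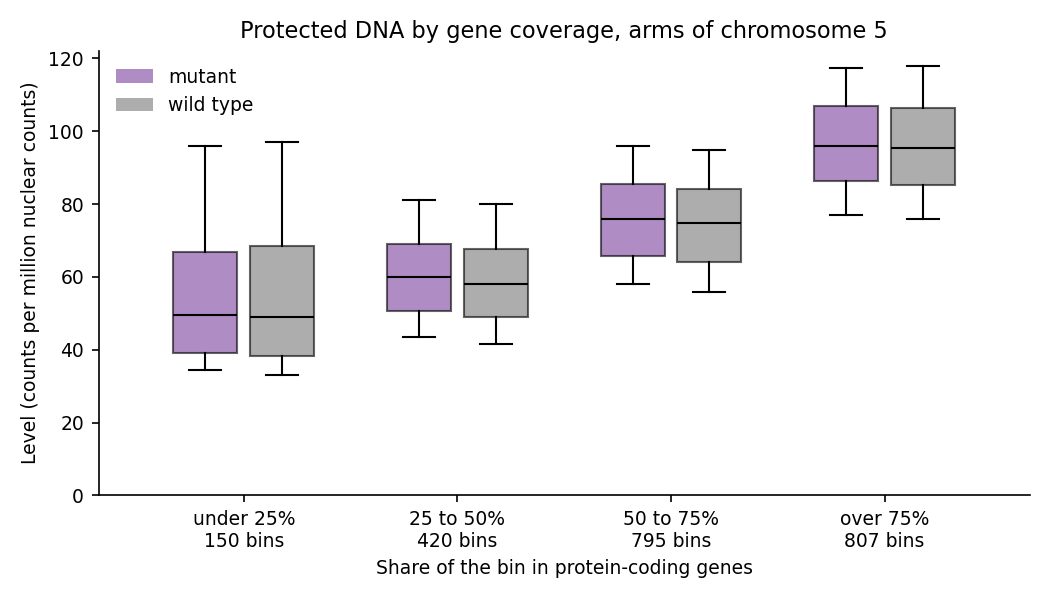
Level of protected DNA in CPM (vertical axis) of the analysed bins on both arms, by the share of the bin in protein-coding genes (horizontal axis), for the mutant (left box of each pair) and the wild type (right box). Boxes span the quartiles with the median as a line, and whiskers span the central 80% of bins. The level climbs with gene coverage alike in both libraries, and the medians of the outer classes are 49.4 and 95.8 in the mutant and 49.0 and 95.3 in the wild type.

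A single bin of the left arm stood far above all others in both libraries. The bin at 3250001 to 3260000 had 172987 counts in the mutant (1689 CPM) and 159815 in the wild type (1608 CPM). This is 21.3 times the median arm bin in the mutant and 20.5 times in the wild type, and 2.08% of all counts of the left arm in the mutant and 2.001% in the wild type. It holds AT5G10350, AT5G10340 and part of EMB3010 (AT5G10360), a ribosomal protein gene. The fold was 1.05 (1.04 to 1.06), and the bins before and after it had ordinary counts, with 4385 and 11129 in the mutant and 4285 and 10864 in the wild type. Without this bin the coefficient of variation over the bins of the left arm was 26.5% in the mutant and 27.6% in the wild type, against 66.1% and 64.4% with it. The next bins by count were of 2 kinds, gene-rich bins and bins mostly of pseudogene. On the left arm the bin of AT5G15680, which covers 90.8% of it, had 17038 counts in the mutant and 16373 in the wild type. The bin of the pseudogene AT5G13475, which covers 57.3% of it, had 15962 in the mutant and 15585 in the wild type. The 3 bins with the most counts on the right arm were those of FIP1[V] (AT5G58040), of the pseudogene AT5G41755 and of GLT1 (AT5G53460), a glutamate synthase gene that covers 98.1% of its bin. They had 15478, 14850 and 15058 counts in the mutant and 15099, 15176 and 14830 in the wild type.

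The 26 bins left out all lay on the right arm, mostly in 2 blocks where annotated genes recur in copies. The first block, with bins between 14330001 and 14510000, begins with a tandem array of 20 protein-coding genes (AT5G36340 to AT5G36550), of which 16 have the same length of 357 bases and whose median spacing is 2196 bases. The array bins held 1802 counts in the mutant and 1772 in the wild type over 5 bins. Next to it, 12 bins held 281 counts in the mutant and 284 in the wild type, and 9 of them were at 0 in both. There AT5G36690 and AT5G36780 are both 2104 bases long, AT5G36730 and AT5G36820 are both 1233, and PGLP1 (AT5G36700), the phosphoglycolate phosphatase gene of photorespiration, has a partner in AT5G36790 with lengths of 3429 and 3446 bases.

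The second block, 20570001 to 20630000, held 51 counts in the mutant and 75 in the wild type over 6 bins. It contains SPL13A and SPL13B, transcription factor genes of the vegetative phase change, and the hydroxysteroid dehydrogenase genes HSD4 and HSD7, which are both 1555 bases long. Of the 66 protein-coding genes with a midpoint in the bins left out, 41 (62.1%) had another gene of exactly the same length within 100 kb, against 75 of the 5767 other genes of the arms. In all, 14 of the 26 bins were at 0 in both libraries; a count of 0 allows up to 3 counts, or 0.029 CPM in the mutant and 0.030 CPM in the wild type. How reads with several matches were handled is not given in the sources used here, so its part in these low counts was not tested. Together the 26 bins had 5376 counts in the mutant and 5096 in the wild type, a fold of 1.02 (0.985 to 1.06). At the filter, the lowest bin kept had 2142 counts in the mutant and 2150 in the wild type, and the highest bin left out had 2076 and 1894.

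Mutant and wild type had nearly the same profile along both arms. Pearson's r of the log2 levels across bins was 0.995 on the left arm and 0.994 on the right arm. Summed over the left arm, the mutant had 8331393 counts and the wild type 7986633, a fold of 1.012 (1.011 to 1.013). Over the right arm the mutant had 9600216 and the wild type 9205395, a fold of 1.012 (1.011 to 1.013). The intervals of the 2 arms overlap.

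On both arms the typical log2 ratio lay slightly above 0. Its median was 0.022 over the left arm, with quartiles of -0.0057 and 0.049, and 0.025 over the right arm, with quartiles of -0.0049 and 0.055. The difference of the medians, left minus right, was -0.0031, against an SD over bins of 0.048 on the left arm and 0.050 on the right arm. The sign of this difference was not stable. When all nuclear bins were split into 10 classes of mean count, the left arm was above the right arm in 7 of 10, with a median difference of 0.0073. The median of the 10 class medians was higher on the left arm by 0.0082. On the left arm 284 of 950 bins were below 0 (29.9%) and on the right arm 358 of 1222 (29.3%), against 38.6% of all analysed nuclear bins. All these ratios depend on the scaling: with the median ratio of all nuclear bins set to 0, which shifts every log2 ratio by -0.015, the medians were 0.0071 on the left arm and 0.010 on the right arm.

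The arms of chromosome 5 were close to those of the other chromosomes. Their median of 0.024 over 2172 bins compares with 0.022 over the 7181 arm bins of chromosomes 1 to 4, a difference of 0.0016. The other chromosomes had arm medians of 0.028 (chromosome 1), 0.015 (chromosome 2), 0.017 (chromosome 3) and 0.028 (chromosome 4). The pericentromere between the arms of chromosome 5 was lower, at -0.065 over 383 bins, so that the arms exceeded it by 0.089, or 1.06-fold. The arms were above the pericentromere in all 10 classes of mean count, by 0.044 to 0.11. Without a replicate library this is a difference between 2 libraries and not between genotypes.

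The step at the inner limits of the arms was not alike on both sides. In the last 500 kb of the left arm the median log2 ratio was 0.033, and in the 500 kb beyond it -0.029. On the right side the first 500 kb of the arm were at -0.030 over the 34 bins kept, and the 500 kb before them at -0.014. The bins next to the limits were at -0.032 inside and -0.043 outside on the left, and at -0.0060 inside and -0.074 outside on the right.

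**Figure D2:**
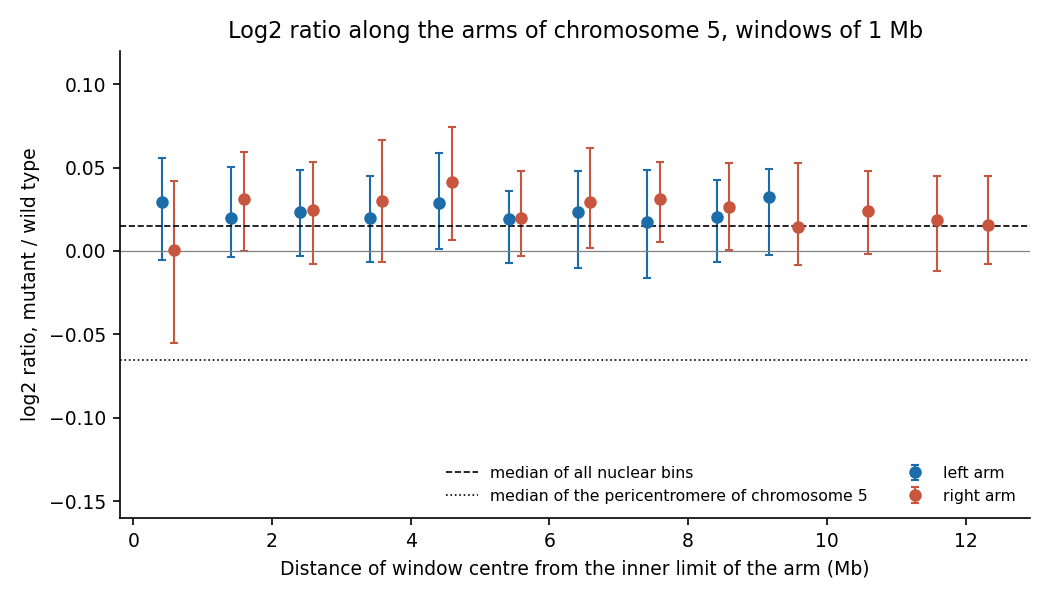
Median log2 ratio, mutant over wild type (vertical axis) in windows of up to 1 Mb, by the distance of the window centre from the inner limit of its arm (horizontal axis, Mb), for the left arm (blue) and the right arm (red). Bars span the quartiles over bins, and the dashed and dotted lines mark the medians of all nuclear bins and of the pericentromere of chromosome 5. The window medians lie between 0.00071 and 0.041, and the lowest is the innermost window of the right arm.

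Along the arms the window medians varied little. All 10 windows of the left arm were above 0, from 0.017 to 0.033, and all 13 windows of the right arm, from 0.00071 to 0.041. The lowest was the innermost window of the right arm (14 to 15 Mb), where 40 of 83 bins were below 0 and pseudogenes covered a mean of 14.1% of the bin, the most of any window. The highest was at 18 to 19 Mb on the right arm, where 67 of 99 bins (67.7%) were above the median of all nuclear bins. This compares with 58.6% of all arm bins and 50% of all nuclear bins. Past 1.1-fold, 2 of its 99 bins were higher and 3 were lower, against 0.81% of all nuclear bins higher and 2.65% lower. Its median level was 71.6 CPM in the mutant and 68.7 CPM in the wild type.

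Ratios of neighbouring bins were almost unrelated. Pearson's r between a bin and the next was 0.093 on both arms (949 pairs on the left arm and 1215 on the right arm). At a distance of 20 kb it was 0.028 on the left arm and 0.038 on the right arm. The wild-type level was more alike between neighbours, with r of 0.27 on both arms. No 2 neighbouring bins both passed a 1.1-fold change in the same direction. At the smaller limit of 0.05 on the log2 scale, chosen after no such pair was found, the longest stretch had 5 bins. It lay at 14840001 to 14890000 on the right arm and overlaps 14 protein-coding genes. Among them is GORK (AT5G37500), the gene of an outward potassium channel of guard cells. The bins of this stretch summed to 35757 counts in the mutant and 33010 in the wild type, a fold of 1.05 (1.04 to 1.07). Single bins lay between log2 ratios of 0.052 and 0.11. Downward stretches were at most 2 bins long at this limit. Given the shares of bins past it, the lengths of stretches are not read as a result.

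The spread of the ratio was about the same on both arms and larger than counting alone gives. The SD over bins was 0.048 on the left arm and 0.050 on the right arm, or 2.06 and 2.05 times the value from Poisson counting. The excess SD, 0.042 on the left arm and 0.044 on the right arm, is variation between the 2 libraries that cannot be assigned to genotype or preparation. In the 10 classes of mean count the SD was 1.67 to 2.98 times that of counting.

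Bins with few counts tended to have a higher ratio. Spearman's rho between the log2 ratio and the mean count was -0.36 on the left arm and -0.39 on the right arm, and both measures come from the same counts. When each arm was split into 10 classes of mean count, the median on the left arm was 0.051 in the class with the fewest counts and -0.0072 in that with the most. On the right arm it was 0.052 and -0.0063. The order in between was not strict on either arm. Gene coverage followed the same order only in part. The median was 0.013 in bins with over 75% coding coverage, 0.029 from 50 to 75%, 0.048 from 25 to 50% and 0.010 under 25%. In the last class the median level was 49.4 CPM in the mutant and 49.0 CPM in the wild type, the lowest of the 4 classes.

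**Figure D3:**
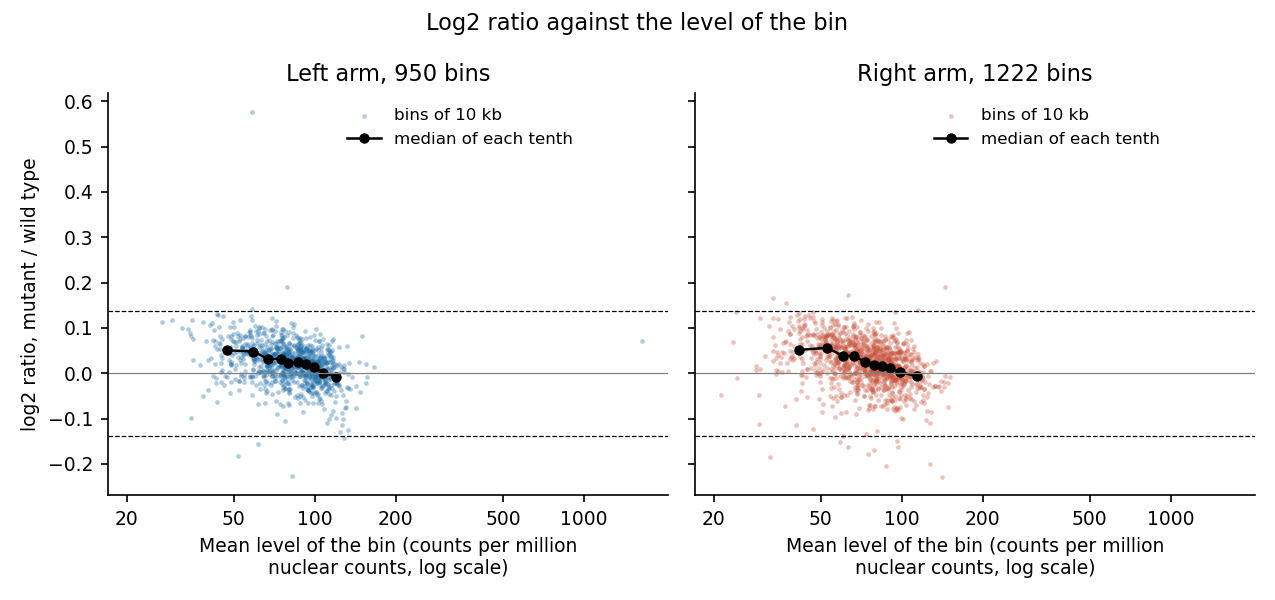
Log2 ratio, mutant over wild type (vertical axis) against the mean level of the bin in CPM (horizontal axis, log scale) for the left arm (left panel) and the right arm (right panel). Each point is a bin of 10 kb, black points are medians of 10 classes of mean count and dashed lines mark 1.1-fold either way. The class medians are 0.051 at the lowest level and -0.0072 at the highest on the left arm, and 0.052 and -0.0063 on the right arm, and 1 bin of the left arm lies apart at 0.58.

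Bins rich in annotated pseudogenes were lower than other arm bins. The 93 bins with over 25% of their length in pseudogenes had a median log2 ratio of -0.028, and 60 of them (64.5%) were below 0. The 1880 bins with none had a median of 0.025, and 521 (27.7%) were below 0. The order was the same on the left arm, at -0.019 over 35 bins and 0.023 over 838, and on the right arm, at -0.040 over 58 bins and 0.027 over 1042. Pseudogene-rich bins were lower in each of 5 classes of mean count, by 0.039 to 0.090. Their median level was 86.1 CPM in the mutant and 90.3 CPM in the wild type, above the pseudogene-free bins at 79.8 and 78.6 CPM.

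The same order was seen elsewhere. On the other arms the medians were -0.023 for 415 pseudogene-rich bins and 0.024 for 5919 bins without pseudogenes. In the pericentromere of chromosome 5 they were -0.086 for 252 rich bins and 0.0094 for the 45 bins without pseudogenes. Among bins without pseudogenes the arms of chromosome 5 exceeded its pericentromere by 0.015, against 0.089 over all bins, a comparison chosen after the values were seen. These 45 pericentromeric bins had lower levels than the arm bins, at 59.2 CPM in the mutant and 55.9 CPM in the wild type. In the lowest of 5 classes of mean count, with 24 of the 45, the medians were 0.056 on the arms and 0.015 in the pericentromere. In the next 3 classes, with 9, 6 and 5 pericentromeric bins, they were 0.035 and 0.0060, 0.022 and 0.024, and 0.013 and -0.011. In the highest class the arms were at -0.0013 and the only pericentromeric bin, 1 in number, at -0.14.

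**Figure D4:**
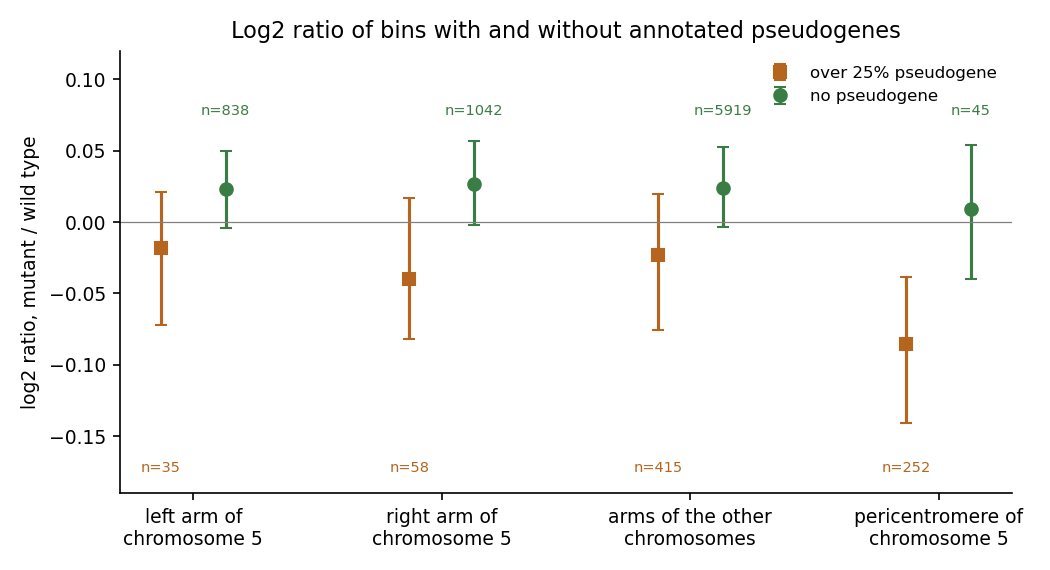
Median log2 ratio, mutant over wild type (vertical axis) in bins with over 25% of their length in annotated pseudogenes (squares) and in bins with none (circles), for both arms of chromosome 5, the arms of the other chromosomes and the pericentromere of chromosome 5. Bars span the quartiles over bins and n is the number of bins. Pseudogene-rich bins have the lower median in all 4 regions, at -0.019, -0.040, -0.023 and -0.086, against 0.023, 0.027, 0.024 and 0.0094 in bins without pseudogenes.

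Few bins of the arms differed by more than 1.1-fold, and none was lower by over 1.2-fold. Of the 2172 bins, 8 (0.368%) were higher by over 1.1-fold, against 0.81% of all analysed nuclear bins and 1.09% of the arm bins of the other chromosomes. The share was 0.76 to 1.27% on each of those chromosomes. On the lower side there were 15 bins (0.691%), against 2.65% of all nuclear bins and 0.668% of the other arms. With the median ratio set to 0 there were 6 higher and 20 lower bins. The left arm had 3 higher and 4 lower bins and the right arm 5 and 11. Pseudogene-rich bins, 4.28% of the arm bins, made up 3 of the 8 higher bins and 9 of the 15 lower ones. At over 1.2-fold the count was 1 higher and 0 lower, against 0.0341% of all nuclear bins higher and 0.298% lower. At over 1.5-fold it was 0 in either direction, against 0.00852% of all nuclear bins each way.

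The highest bin of the left arm was the only bin of both arms past 1.2-fold. It lies at 5630001 to 5640000, with 7175 counts in the mutant and 4668 in the wild type, a fold of 1.49 (1.44 to 1.55). The pseudogene AT5G17125 covers 42.3% of it and AT5G17150 covers 11.6%. The bin before it had a fold of 1.07 (1.04 to 1.11) and the bin after it 0.977 (0.947 to 1.01). The next, at 6830001 to 6840000, had 8586 counts in the mutant and 7306 in the wild type, a fold of 1.14 (1.11 to 1.18). It holds DIN10 (AT5G20250), a dark-induced gene of the raffinose synthase family, and the midpoint of PI (AT5G20240), the floral homeotic gene of petals and stamens. Its neighbours were at 0.996 and 1.01.

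The other bins at the top of the left arm had no pseudogene and differed in gene coverage. The bin of MYB16 (AT5G15310), a regulator of epidermal cell shape and cuticle formation, had 6288 counts in the mutant and 5529 in the wild type, a fold of 1.104 (1.06 to 1.14). That of MYB86 (AT5G26660) had 4644 in the mutant and 4119 in the wild type, a fold of 1.09 (1.05 to 1.14). The bins of BGLU32 (AT5G24550), a member of the beta-glucosidase family, and of F8H (AT5G22940) were at 1.09. So was that of GAD (AT5G17330), a glutamate decarboxylase gene, and that of AT5G16240 and AT5G16230. Protein-coding genes covered 17.2% of the bin of MYB86, but 62.6% of that of GAD and 70.5% of that of AT5G16240. All 8 of the highest bins of the left arm had fewer wild-type counts than the median nuclear bin, as did 5 of the 8 highest on the right arm. The median bin of both arms, at 7750.5 wild-type counts, was also below the nuclear median of 7978. The wild-type count is itself part of the ratio by which these bins were ranked.

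The lowest bins of the left arm were mostly stretches of pseudogenes. The lowest, 9560001 to 9570000, had 7796 counts in the mutant and 8849 in the wild type, a fold of 0.855 (0.829 to 0.882), and pseudogenes covered 57.4% of it. The second, 9340001 to 9350000, with the MADS-box gene AGL36 (AT5G26650), had 4984 in the mutant and 5490 in the wild type, a fold of 0.881 (0.848 to 0.916). It lies next to the bin of MYB86, which was at 1.09, so neighbouring bins went opposite ways. The bins led by the pseudogenes AT5G25045, AT5G26775 and AT5G12085 were at 0.898, 0.906 and 0.914. The bin of AT5G26775 also reaches SHM2 (AT5G26780), a serine hydroxymethyltransferase gene, and that of AT5G12085 reaches MSL10 (AT5G12080), a mechanosensitive channel gene. Among these 8, only 3 had under 25% pseudogene coverage: the bin of AGL36, that of AT5G07570 at 0.925 (0.902 to 0.948), and that of GLU1 (AT5G04140). GLU1 encodes the main ferredoxin-dependent glutamate synthase of leaves and covers 84.9% of its bin, which had 10976 counts in the mutant and 11489 in the wild type, a fold of 0.927 (0.903 to 0.952).

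Some of the highest bins of the right arm lay near each other. The top one, 18140001 to 18150000, had 15856 counts in the mutant and 13476 in the wild type, a fold of 1.14 (1.12 to 1.17). The pseudogene AT5G44925 covers 43.6% of it, and it reaches ARAD2 (AT5G44930), a gene of the arabinan synthesis family. The bin at 18230001 to 18240000, with the pseudogene AT5G45116 and the midpoint of NPR3 (AT5G45110), a salicylic acid receptor gene, had 12327 in the mutant and 10865 in the wild type, a fold of 1.101 (1.07 to 1.13). Near it the bin of BRG1 (AT5G45100), a RING protein gene, had 2590 in the mutant and 2289 in the wild type, a fold of 1.098 (1.04 to 1.16). The bin between them, however, was at 1.01 (0.966 to 1.05) and the bin before that of BRG1 at 0.941 (0.907 to 0.975).

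The clearest neighbours were the bins over AT5G40450, a long protein-coding gene. The bin at 16190001 to 16200000 had 6873 counts in the mutant and 5917 in the wild type, a fold of 1.13 (1.09 to 1.17). The bin before it, which also holds MKK3 (AT5G40440), a MAP kinase kinase gene, had 10121 in the mutant and 8948 in the wild type, a fold of 1.098 (1.07 to 1.13). The bin that follows 16190001 to 16200000 was at 1.09 (1.04 to 1.13). The other bins among the 8 highest were those of OPT9 (AT5G53510), an oligopeptide transporter gene, at 1.12 (1.07 to 1.18), ZFP2 (AT5G57520), a zinc finger gene, at 1.11 (1.06 to 1.17) and NUC (AT5G44160), a zinc finger gene of the INDETERMINATE DOMAIN family, at 1.098 (1.05 to 1.14). Protein-coding genes covered 11.5%, 11.2% and 28.9% of these 3 bins.

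The lowest bin of the right arm had the highest coding coverage of its 8 lowest bins, at 87.85%. It lies at 15920001 to 15930000, with 13284 counts in the mutant and 15109 in the wild type, a fold of 0.853 (0.834 to 0.873), and AT5G39770 covers 75.5% of it. Its neighbours were at 0.995 and 1.03. The next, 21830001 to 21840000, with the pseudogene AT5G53775, had 8286 in the mutant and 9265 in the wild type, a fold of 0.868 (0.843 to 0.894). The third had 12147 counts in the mutant and 13552 in the wild type, a fold of 0.870 (0.849 to 0.892), and AT5G38190 covers 37.2% of it. The other 5, led by AT5G36655, AT5G37875, AT5G46665, AT5G45570 and AT5G43800, lay between 0.880 and 0.894. Of these leading genes only AT5G45570 is protein-coding, and coding coverage of its bin was 58.4%. The bin of AT5G36655 had only 3116 counts in the mutant and 3435 in the wild type and lies within the first block of copied genes. Neighbours of the named bins were near the share of all arm bins, of which 58.6% lay above the nuclear median. Around the 8 lowest bins, 7 of 16 analysed neighbours on the left arm and 5 of 14 on the right arm were below that median. Around the 8 highest bins, 8 of 16 on the left arm and 10 of 16 on the right arm were above it. These neighbours include named bins, those that start at 9330001 and 9340001 on the left arm and at 16180001 and 16190001 on the right arm. The bin that starts at 18220001 counts as a neighbour of 2 named bins.

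Bins of 13 gene lists were spread around the nuclear median. The lists held 147 genes, all found in the gene table, of which 141 lie on the arms, in 126 analysed bins. Of these, 64 (50.8%) were above the nuclear median, against 58.6% of all arm bins and 50% of all nuclear bins. Their log2 ratios ran from -0.13 to 0.19 with a median of 0.016, near the 0.015 of all nuclear bins. Past 1.1-fold, 2 of the 126 bins were higher, those of PI and NPR3 described above, and 0 were lower. Over all arm bins 0.368% were higher and 0.691% lower by this measure, so a count this small is not read as a result about the lists.

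Immune receptor genes of the NLR type, which detect pathogen effectors inside the cell, are the longest list and are clustered on this chromosome. Of their 37 bins, 18 were above the nuclear median and the list median was 0.013. The lowest was the bin of ADR1-L3 (AT5G47280), a gene of the ADR1 family of helper NLRs, and AT5G47260, with 12197 counts in the mutant and 12704 in the wild type, a fold of 0.932 (0.909 to 0.955). The bin of AT5G36930 followed with 12755 in the mutant and 13142 in the wild type, a fold of 0.942 (0.919 to 0.965). The highest were the bin of AT5G45210, with 7503 counts in the mutant and 6708 in the wild type and a fold of 1.09 (1.05 to 1.12), and that of AT5G41540 and AT5G41550, with 9960 in the mutant and 8955 in the wild type and a fold of 1.08 (1.05 to 1.11). The paired receptor genes RPS4 and RRS1, which share a bin, had 12445 counts in the mutant and 11949 in the wild type, a fold of 1.01 (0.986 to 1.04). Members of these clusters can be similar in sequence, and whether the counting split or left out their reads was not tested. The 37 bins had median levels of 94.2 CPM in the mutant and 93.0 CPM in the wild type, against 79.4 and 78.3 CPM over all arm bins.

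For genes of pattern recognition and immune signalling, 5 of 6 bins were above the nuclear median and the list median was 0.039. The bin of NPR3 led at 1.101, and that of CBP60G (AT5G26920), a transcription factor gene of salicylic acid synthesis, had 5689 counts in the mutant and 5228 in the wild type, a fold of 1.06 (1.02 to 1.097). The receptor gene FLS2 (AT5G46330), which detects bacterial flagellin, had 8951 in the mutant and 8469 in the wild type, a fold of 1.03 (0.996 to 1.06). The lowest bins were those of RBOHD (AT5G47910), the NADPH oxidase gene of the oxidative burst, at 0.980 (0.944 to 1.02) and EFR (AT5G20480), a receptor gene for bacterial elongation factor Tu, at 1.02 (0.992 to 1.05).

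For flowering and floral identity genes, 8 of 12 bins were above the nuclear median and the list median was 0.036. Next to PI stood MAF5 (AT5G65080), a relative of the flowering repressor FLC, with 7668 counts in the mutant and 7034 in the wild type and a fold of 1.06 (1.02 to 1.09). The lowest were the bins of the MADS-box gene AGL15 (AT5G13790), with 9501 in the mutant and 9441 in the wild type and a fold of 0.977 (0.949 to 1.01), and of HUA2 (AT5G23150) at 0.985 (0.959 to 1.01). FLC itself (AT5G10140) had 8772 in the mutant and 8329 in the wild type, a fold of 1.02 (0.992 to 1.05).

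Histone genes and genes of chromatin regulators were near the middle. Of the 14 histone gene bins, 8 were above the nuclear median and the list median was 0.027. They ran from the bin of RAT5 (AT5G54640), an H2A gene needed for Agrobacterium transformation of roots, with 6945 counts in the mutant and 6913 in the wild type and a fold of 0.975 (0.943 to 1.01), to that of HTA6 (AT5G59870), also an H2A gene, with 5094 in the mutant and 4656 in the wild type and a fold of 1.06 (1.02 to 1.11). The H3.1 gene AT5G10390 was at 0.994 (0.968 to 1.02) and the H2B gene HTB2 (AT5G22880) at 1.04 (1.01 to 1.07). Copies within a histone family can be similar in sequence, and how their reads were placed was not tested. All 14 bins passed the filter, with median levels of 74.0 CPM in the mutant and 72.1 CPM in the wild type. Of the 12 bins of chromatin and DNA methylation regulators, 6 were above the nuclear median, with a list median of 0.015. MSI1 (AT5G58230), a histone-binding subunit of several complexes, was at 0.967 (0.943 to 0.992) and DME (AT5G04560), the DNA demethylase gene, at 0.977 (0.954 to 1.0004). EMF2 (AT5G51230), a Polycomb gene, was at 1.02 (0.996 to 1.05) and MET1 (AT5G49160), the CG methyltransferase gene, at 1.02 (0.993 to 1.05).

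Among the smaller lists, photosynthesis genes had the lowest median, -0.020 over 4 bins, of which 1 was above the nuclear median. The bin of LHCB3 (AT5G54270), an antenna protein gene, had 7164 counts in the mutant and 7631 in the wild type, a fold of 0.911 (0.882 to 0.941), the lowest of all list bins. PSAN (AT5G64040), a photosystem I subunit gene, had 9847 in the mutant and 9837 in the wild type, a fold of 0.971 (0.945 to 0.999). The Rubisco small subunit genes were at 1.001 (0.970 to 1.03) for RBCS3B and 1.03 (0.995 to 1.07) for RBCS2B and RBCS1B. When a gene's value was the mean of all bins that it overlaps, with 1 value per gene, the median of the photosynthesis genes was 0.0012. For these 5 genes in 4 bins, midpoint bins counted per gene gave the same median. All 3 bins of light receptor and signalling genes were below the nuclear median. The blue light receptor gene PHOT2 (AT5G58140) was the lowest, with 12553 counts in the mutant and 13143 in the wild type and a fold of 0.927 (0.904 to 0.95), followed by PHYC (AT5G35840), a phytochrome gene, at 0.996 (0.962 to 1.03) and HY5 (AT5G11260), a transcription factor gene of light responses, at 0.999 (0.971 to 1.03).

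Clock, heat shock and flavonoid genes had medians just below 0. For the clock the median was -0.0021 with 2 of 7 bins above the nuclear median, from LCL1 (AT5G02840) at 0.957 (0.933 to 0.982) and RVE2 (AT5G37260) at 0.986 (0.949 to 1.02) to PRR3 (AT5G60100) at 1.03 (1.003 to 1.06) and TOC1 (AT5G61380), an evening component, at 1.04 (1.02 to 1.07). For heat shock genes it was -0.011 with 3 of 7 above, from HSP18.2 (AT5G59720), a small chaperone gene, at 0.948 (0.917 to 0.981) and AT5G51440 at 0.986 (0.961 to 1.01) to the shared bin of HSC70-1 and Hsp70-2 at 1.02 (0.989 to 1.04) and that of HSP17.6II and HSP17.6A at 1.04 (1.004 to 1.07). For flavonoid synthesis it was -0.010 over 4 bins, from FLS1 (AT5G08640), flavonol synthase, at 0.970 (0.943 to 0.997) and TT4 (AT5G13930), chalcone synthase, at 0.973 (0.949 to 0.998) to DFR (AT5G42800) at 1.01 (0.976 to 1.05) and TT7 (AT5G07990), a hydroxylase gene, at 1.05 (1.01 to 1.08). With a mean over all bins of each gene and 1 value per gene, the heat shock median was 0.0040 and the flavonoid median 0.0019, so their signs are not stable. For the 10 heat shock genes in 7 bins, midpoint bins counted per gene gave the same median.

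The remaining lists had small positive medians. Seed storage and late embryogenesis genes were at 0.032, with 4 of 7 bins above the nuclear median, from the cruciferin gene CRA1 (AT5G44120) at 0.987 (0.956 to 1.02) and the oleosin gene OLEO2 (AT5G40420) at 0.989 (0.959 to 1.02) to LTI78 (AT5G52310) at 1.03 (0.996 to 1.06) and LTI65 (AT5G52300) at 1.03 (1.003 to 1.06), 2 dehydration-responsive genes. Leaf polarity and MIR166 genes were at 0.017, with 4 of 7 above, from MIR166d at 0.999 (0.972 to 1.03) and CUC2 (AT5G53950), a boundary gene, at 1.003 (0.968 to 1.04) to MIR166e at 1.04 (1.0003 to 1.08) and MIR166g at 1.06 (1.03 to 1.09). With a mean over all bins of each gene, the median of this list was 0.0046. Auxin and ethylene genes were at 0.0089, with 4 of 9 above, from ARF2 (AT5G62000) and ARF8 (AT5G37020), auxin response factor genes, at 0.965 (0.938 to 0.993) and 0.966 (0.940 to 0.992) to PIN5 (AT5G16530), an auxin transporter gene, at 1.03 (0.996 to 1.06) and EBF2 (AT5G25350), an F-box gene of ethylene signalling, at 1.06 (1.02 to 1.09). With the median ratio of all nuclear bins set to 0, the medians of the auxin and ethylene list and of the NLR list were -0.0058 and -0.0021.

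**Figure D5:**
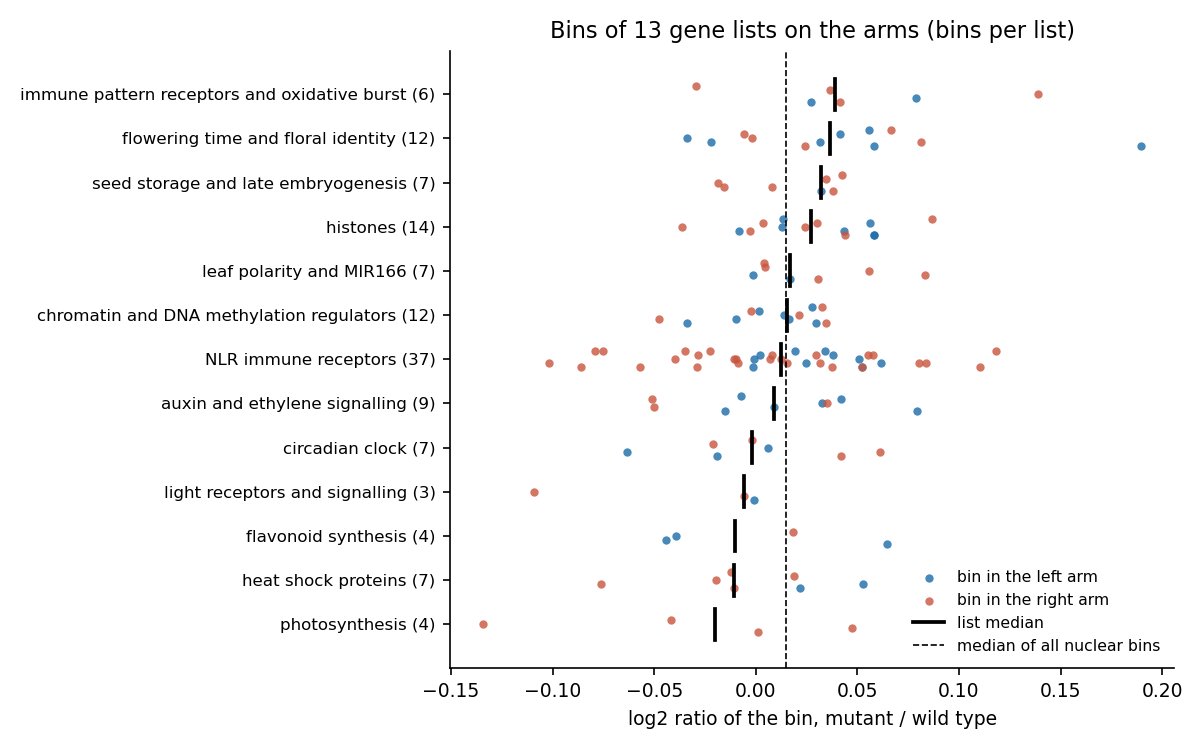
Log2 ratio, mutant over wild type (horizontal axis) of the bins that hold the midpoints of genes from 13 lists (rows, with the number of bins), coloured by arm. Vertical bars are list medians and the dashed line is the median of all nuclear bins. List medians lie between -0.020 and 0.039, and the bin farthest to the right, at 0.19, is that of PI.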

How the data were processed

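The authors deposited whole-number counts per bin of 10 kb for 1 library of each genotype, with no normalization, and the 2 tables hold the same bins. Per the submitters' processing notes, BWA 0.7.5a and bedtools were used; the sources used here do not say what each did, how duplicates or multiply matching reads were treated, what a count stands for (read or fragment), or which genome build was used. Counts were scaled to the sum over the 5 nuclear chromosomes, and log2 ratios used a pseudocount of 1. Ratios needed a mean of at least 0.25 times the nuclear median. Arms of the other chromosomes were bins over 2 Mb from rounded centromere positions (chromosome 1 at 15 Mb, chromosome 2 at 3.6 Mb, chromosome 3 at 14 Mb and chromosome 4 at 4 Mb) and over 500 kb from the ends.

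Genes were assigned to the bin of their midpoint by position in a gene list from RefSeq (TAIR10.1), used for names, lengths and placement but not for printed positions. Named bins were the 8 highest and 8 lowest of each arm each with its up to 2 best-covering genes, plus the top 2 and bottom 2 bins per gene list. The bins with the most counts, the bins left out and other genes named were chosen after their values were seen. The members and lists were chosen with earlier results of these data known. The alternatives were 2 other scalings, 2 other filters, a pseudocount of 10, windows of 50 kb, narrower arms, classes of mean count and another assignment of genes. Scripts were tested on simulated counts. Sequences were not used here. Figures were drawn with matplotlib 3.10.9, intervals came from scipy 1.17.1, and tables were handled in Python 3.11.15 with pandas 2.3.3 and numpy 2.4.6.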

Additional observations from a re-analysis of the deposited data

How the results depend on the processing

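Of 59 recomputed values of the arm comparisons, 48 stayed close to those reported, 10 moved and 1 reversed. Close means within the half-width of an interval of the median over bins (0.0029 for the left arm, 0.0033 for the right arm, 0.0043 for left minus right, 0.0026 against the other arms and 0.0095 against the pericentromere), and for counts of bins within 1.5 times. So defined, close counts of bins past 1.1-fold ran from 6 (median ratio set to 0) to 12 (no filter) higher, and from 10 (narrower arms) to 20 (median ratio set to 0) lower, against 8 and 15. For left minus right (-0.0031) and against the other arms (0.0016) the half-width exceeds the value. A value near 0 of the same sign would there also be called close. The half-widths treat bins as independent, although they share a library. With the median ratio of all nuclear bins set to 0, the arm medians were 0.0071 (left) and 0.010 (right). In windows of 50 kb they were 0.019 and 0.021, and 0 windows passed 1.1-fold in either direction. Taken as the median of the medians of 10 classes of mean count, they were 0.026 and 0.018. Their difference, left minus right, reversed to 0.0082, and the arms so taken exceeded the pericentromere of chromosome 5 by 0.060. In bins with no pseudogene, an alternative chosen after seeing the data, that excess was 0.015. It rests on 45 pericentromeric bins with lower levels than the arm bins. The other scalings, filters, the pseudocount of 10 and the narrower arms kept the signs of the arm medians and of the differences. Counts of bins have no sign. A change of scaling shifts every log2 ratio by nearly the same amount, so it could not change the differences of medians. Their values under the other scalings, counted among the 48, are therefore no check. Of 40 other recomputed values, 5 list medians changed sign: NLR genes (-0.0021) and auxin and ethylene genes (-0.0058) with the median ratio set to 0, and photosynthesis (0.0012), heat shock (0.0040) and flavonoid genes (0.0019) with the mean over all bins of a gene. That alternative took 1 value per gene, so genes that share a bin counted separately. For the 5 photosynthesis genes in 4 bins and the 10 heat shock genes in 7, midpoint bins counted per gene gave the same medians. With the mean over all bins of a gene, the leaf polarity and MIR166 median was 0.0046, against 0.017. The cause of this and of the flavonoid change was not tested. Without the bin with the most counts, added after seeing the data, the fold of the left arm sum stayed at 1.012. No paired analysis was possible because there is 1 library per genotype, and no replicate could be left out for the same reason. A median arm bin of 8106 counts in the mutant and 7750.5 in the wild type limits single folds to a few percent.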

Other observations

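Bins with genes of small RNAs were also examined on the arms, after the other values were seen. The 107 bins with the midpoint of a tRNA gene had a median log2 ratio of 0.027, with 20 below 0 (18.7%), and an SD of 0.035 against 0.049 over all arm bins. The 30 bins with a snoRNA gene were at 0.029, with 5 below 0 (16.7%), and the 61 bins with a miRNA gene at 0.025, with 19 below 0 (31.1%). Over all arm bins 29.6% were below 0. The median level of the tRNA bins was 74.9 CPM in the mutant and 73.2 CPM in the wild type. The 469 bins with a long non-coding RNA gene were at 0.029. Past 1.1-fold there were 0 tRNA, snoRNA or miRNA bins, and 2 higher and 2 lower lncRNA bins. Over all arm bins 0.368% were higher and 0.691% lower, and these counts are too small to set the classes apart from that.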
